A study of Caenorhabditis elegans with 8 samples.

Results

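The transcriptional output of HIF-1 was compared between 2 strains of *C. elegans* that carry the same *egl-9* mutation and differ in what else they lack. The *cyp-36A1(lf); egl-9(lf)* double mutant has active HIF-1 and carries a nonsense allele of *cyp-36A1*, taken as a loss of function. The other strain, *egl-9(lf) hif-1(lf)*, lacks HIF-1 itself. A difference between them addresses the part of the HIF-1 output that does not need CYP-36A1. The *hif-1* double mutant keeps an intact *cyp-36A1* gene, so a difference can also come from the loss of *cyp-36A1* itself. The comparison used 4 of the 8 libraries of the series, 2 from each double mutant, and all 45461 annotated features, of which 21372 had a rounded count above 0 in at least 1 of the 8 libraries and were tested. The other 4 libraries, 2 of *egl-9(lf)* single mutants and 2 of the wild type, served as a second comparison that has no library in common with the first.

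All libraries were made from polyadenylated RNA of about 150 whole, very young adults grown at 22.5°C, and the 2 replicates of a strain were separate populations. The *cyp-36A1* double mutant (strain MT22836) carried *cyp-36A1(gk824636)* and *egl-9(sa307)*. The *hif-1* double mutant (strain CB6088) carried *egl-9(sa307)* and the deletion *hif-1(ia4)*. The single mutant was JT307, with *egl-9(sa307)* alone, and the wild type was N2. Each genotype was represented by a single strain, so other variants in its background cannot be told apart from the named alleles. Whole-animal RNA also mixes tissues, so that fewer cells of a type and less RNA per cell cannot be told apart.

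HIF-1 is the worm's hypoxia-inducible transcription factor. Its level is set mainly by protein turnover, which needs the oxygen-dependent enzyme EGL-9, a prolyl hydroxylase, together with the ubiquitin ligase subunit VHL-1. Animals that lack *egl-9* therefore keep HIF-1 active in normal air. HIF-1 is known in worms for raising genes of glucose metabolism, of cysteine and hydrogen sulfide handling, of collagen hydroxylation, and of its own negative feedback. CYP-36A1 is a cytochrome P450 enzyme and *nhr-46* encodes a nuclear hormone receptor, and both were studied as steps downstream of HIF-1.

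The targeted genes were checked first, as CPM, the counts of a gene per 1000000 counts of the library after TMM scaling. The *hif-1* gene itself was at 128 and 143 CPM in the *cyp-36A1* double mutant, against 45.2 and 43.5 CPM in the *hif-1* double mutant, with 161 and 143 CPM in *egl-9(lf)* mutants and 186 and 188 CPM in the wild type. The libraries labelled *hif-1(lf)* were thus the lowest, with a log2 difference of 1.61 ± 0.12 (SE, n = 2 each, adjusted p = 2.9e-06). Every adjusted p given here comes from the quasi-likelihood F-test of edgeR, adjusted by the Benjamini-Hochberg method over all features. The *cyp-36A1* gene was at 4.78 and 19.4 CPM in its own mutant, far apart between the replicates, against 5.22 and 6.88 CPM in the *hif-1* double mutant. Both strains were below the 29.4 and 55.0 CPM of *egl-9(lf)* mutants, and the difference between them did not pass the test (adjusted p = 0.33). A nonsense allele need not lower its RNA, so these values do not check the label. The receptor gene *nhr-46* was at 35.9 and 40.2 CPM in the *cyp-36A1* double mutant and 34.1 and 34.8 CPM in the *hif-1* double mutant, ranges that did not overlap but whose difference did not pass the test (log2 difference 0.14 ± 0.12, adjusted p = 0.58).

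Library totals ran from 15926703 to 19703384 expected counts in the 4 double-mutant libraries and from 11925027 to 22269111 in the other 4. Between the double mutants, 845 features were higher and 1764 lower in the *cyp-36A1* double mutant (3.95% and 8.25% of those tested). At least 2-fold changes were 446 higher (2.09%) and 1347 lower (6.3%). The 2 libraries of the *cyp-36A1* double mutant did not overlap those of the *hif-1* double mutant for 2608 of the 2609 called features, and for 44.3% of all features tested. Although lower genes were more numerous, large changes were more often increases, with 85 features at least 16-fold higher and 45 at least 16-fold lower by their fitted fold change. With 2 libraries per strain the counts depended on single libraries. Without replicate 1 of the *cyp-36A1* double mutant 426 features were higher and 1050 lower, without its replicate 2 they were 536 and 998, and without replicate 2 of the *hif-1* double mutant 469 and 836. An exact permutation test on 2 against 2 libraries cannot give a two-sided p below 0.333, so calls rest on the model fitted across all features.

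Genes of the feedback arm of the pathway were strongly higher in the *cyp-36A1* double mutant. The acyltransferase-like gene *rhy-1*, a negative regulator of HIF-1, was at 350 and 406 CPM in the *cyp-36A1* double mutant, against 11.4 and 9.53 CPM in the *hif-1* double mutant (log2 fold change 5.18 ± 0.18, adjusted p = 7.7e-09). The *egl-9* transcript, which is made from the mutant locus in both strains, was at 85.6 and 112 CPM, against 22.5 and 24.6 CPM (log2 fold change 2.07 ± 0.15, adjusted p = 4.2e-06). The gene *cysl-1*, whose product binds EGL-9 and blocks it, was at 94.2 and 102 CPM, against 25.7 and 31.1 CPM (log2 fold change 1.78 ± 0.14). For all of these the strains were well apart. Of the 13 tested genes of the HIF-1 pathway and the VHL complex, 5 were higher and none lower, beside 3.95% higher and 8.25% lower among all features. Among the 5 was *hif-1* itself, which carries a deletion in the *hif-1* double mutant, so its call belongs to the genotype. The fifth gene besides *hif-1*, *rhy-1*, *egl-9* and *cysl-1* was *aha-1*, the HIF-1 partner subunit, with a log2 fold change of 0.59 ± 0.17 (adjusted p = 0.038), a call that was lost when any of the 8 libraries was left out (adjusted p = 0.051 to 0.18). The genes of the ubiquitin ligase complex, *vhl-1*, *elb-1*, *elc-1*, *cul-2* and *rbx-1*, did not pass the test, with log2 fold changes of 0.34, 0.20, -0.33, 0.06 and 0.17.

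Of 12 hypoxia-response genes known to depend on HIF-1, 9 were higher and 1 was lower, beside 3.95% and 8.25% of all features. Their median log2 fold change was 3.49, beside 0.00 over all features. The list also holds *rhy-1*, *egl-9* and *cyp-36A1*, which are in the pathway list too. Its members *nhr-57*, *cysl-2*, *sqrd-1*, *ethe-1*, *phy-2* and *pfk-1.2* are also in other lists below. The counts of these lists are therefore not independent. The nuclear receptor gene *nhr-57*, a classical reporter of HIF-1 activity, was at 142 and 148 CPM in the *cyp-36A1* double mutant, against 2.39 and 2.55 CPM in the *hif-1* double mutant (log2 fold change 5.87 ± 0.19, adjusted p = 5.5e-09). The uncharacterized target F22B5.4 was at 132 and 116 CPM, against 6.22 and 8.83 CPM (log2 fold change 4.03 ± 0.18). The flavin-containing monooxygenase gene *fmo-2* was at 7.45 and 7.46 CPM, against 0.126 and 0.162 CPM (log2 fold change 5.61 ± 0.36, adjusted p = 4.2e-07). In *egl-9(lf)* mutants, which have CYP-36A1, *nhr-57* was at 126 and 151 CPM, F22B5.4 at 84.4 and 83.9 CPM, and *fmo-2* at 4.16 and 3.98 CPM. The single lower gene was *pfk-1.2*, a phosphofructokinase, at 3.70 and 5.47 CPM against 8.74 and 13.8 CPM. In *egl-9(lf)* mutants it was at 3.62 and 3.23 CPM, against 8.40 and 10.3 CPM in the wild type. Its call was lost without replicate 1 of the *cyp-36A1* double mutant (adjusted p = 0.076) or replicate 2 of the *hif-1* double mutant (adjusted p = 0.072). The manganese and iron transporter gene *smf-3* was low in both double mutants and in *egl-9(lf)* mutants, at 1.34 and 0.808 CPM in the *cyp-36A1* double mutant and 1.32 and 0.487 CPM in the *hif-1* double mutant, against 6.32 and 7.73 CPM in the wild type.

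**Figure D1:**
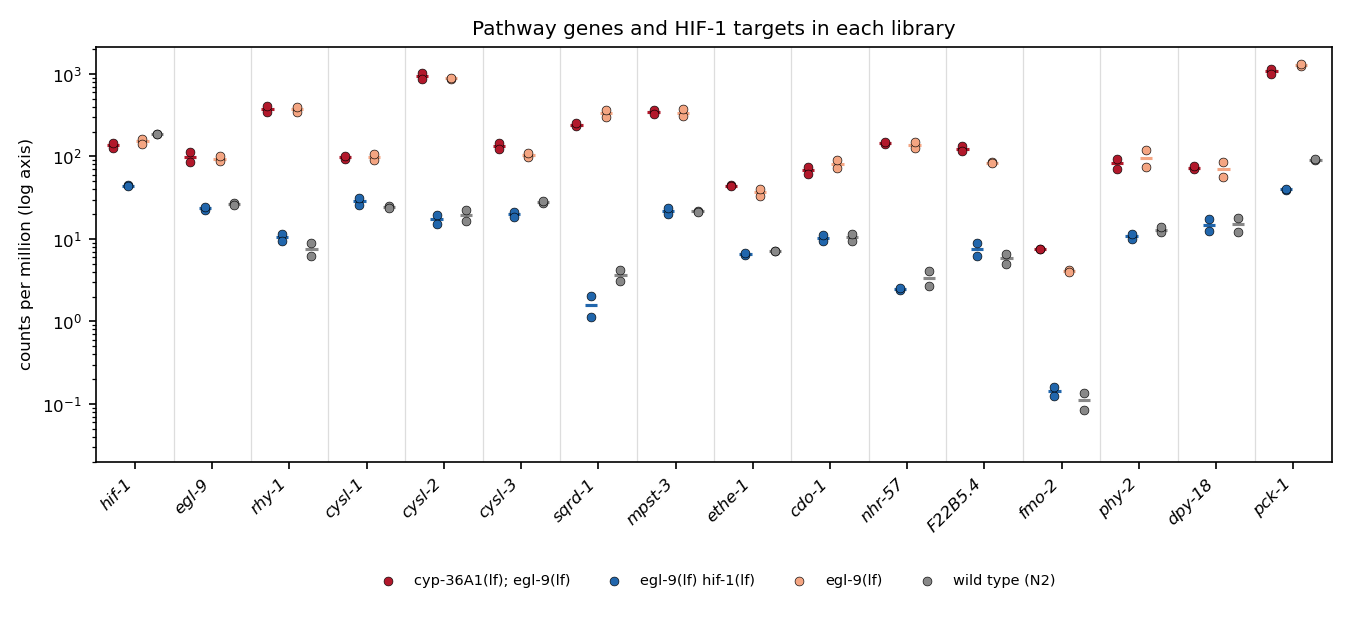
CPM (log axis) of 16 pathway genes and HIF-1 targets in each of the 8 libraries, with points for libraries and bars for strain means. For each gene the 2 libraries of the *cyp-36A1* double mutant lie above both libraries of the *hif-1* double mutant, from *hif-1* (128 and 143 against 45.2 and 43.5 CPM) to *pck-1* (1143 and 998 against 39.4 and 40.7 CPM).

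Genes of cysteine and hydrogen sulfide metabolism held some of the largest increases. Among all features 3.95% were higher and 8.25% lower. Of 19 tested genes 9 were higher and 4 lower, or 2 lower when replicate 1 or 2 of the *cyp-36A1* double mutant or replicate 2 of the *hif-1* double mutant was left out. The mitochondrial sulfide:quinone oxidoreductase gene *sqrd-1*, which starts sulfide oxidation, was at 231 and 255 CPM in the *cyp-36A1* double mutant, against 2.01 and 1.14 CPM in the *hif-1* double mutant (log2 fold change 7.29 ± 0.22, adjusted p = 3.5e-09). The cysteine synthase-like gene *cysl-2*, which acts in cyanide and sulfide assimilation, was at 1022 and 872 CPM, against 19.7 and 15.2 CPM (log2 fold change 5.77 ± 0.18). Its relative *cysl-3* was at 144 and 124 CPM, against 21.4 and 18.5 CPM (log2 fold change 2.75 ± 0.14). Other enzymes of sulfur metabolism were higher too. The sulfurtransferase gene *mpst-3* was at 367 and 330 CPM in the *cyp-36A1* double mutant, against 19.9 and 23.4 CPM in the *hif-1* double mutant (log2 fold change 4.0 ± 0.14). The persulfide dioxygenase gene *ethe-1* was at 44.6 and 43.5 CPM, against 6.35 and 6.66 CPM, and the cysteine dioxygenase gene *cdo-1* at 74.8 and 61.7 CPM, against 9.56 and 11.1 CPM (log2 fold changes 2.76 ± 0.16 and 2.72 ± 0.17). The list was not uniform. The cystathionine beta-synthase gene *cbs-2* was lower, at 1.54 and 2.05 CPM against 7.61 and 12.29 CPM (log2 fold change -2.49 ± 0.29, adjusted p = 0.0002), as was the sulfurtransferase gene *mpst-4*, at 1.44 and 1.74 CPM against 4.28 and 9.26 CPM (log2 fold change -2.12 ± 0.37).

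In glucose metabolism 14 of 27 genes of glycolysis, gluconeogenesis and trehalose were higher and 2 lower. These were 51.9% and 7.41%, beside 3.95% and 8.25% of all features, and the median log2 fold change was 0.37. The gluconeogenic enzyme gene *pck-1*, a phosphoenolpyruvate carboxykinase, stood apart from the rest, at 1143 and 998 CPM in the *cyp-36A1* double mutant, against 39.4 and 40.7 CPM in the *hif-1* double mutant (log2 fold change 4.74 ± 0.11, adjusted p = 5.8e-10). The glycolytic genes changed far less. The aldolase gene *aldo-1* was at 307 and 274 CPM, against 103.2 and 118.9 CPM (log2 fold change 1.39 ± 0.12), and the glyceraldehyde-3-phosphate dehydrogenase gene *gpd-3* at 675 and 560 CPM, against 278 and 313 CPM (log2 fold change 1.06 ± 0.11). Enolase (*enol-1*), triosephosphate isomerase (*tpi-1*), phosphoglycerate mutase (*ipgm-1*) and lactate dehydrogenase (*ldh-1*) had log2 fold changes of 0.72, 0.70, 0.74 and 0.81, each higher in both libraries. The genes named *gpd-* are near-identical copies among which RSEM divided reads, so their single values are uncertain. With replicate 2 of the *hif-1* double mutant left out, 9 genes of the list were higher and 0 lower, and 0 were lower without replicate 1 of the *cyp-36A1* double mutant.

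Hydroxylation of collagen, stress proteins and iron storage each gave some higher genes. Of 6 collagen prolyl and lysyl hydroxylase genes 3 were higher and none lower, beside 3.95% higher and 8.25% lower among all features. The prolyl 4-hydroxylase subunit gene *phy-2* was at 93.7 and 71.0 CPM in the *cyp-36A1* double mutant, against 9.93 and 11.5 CPM in the *hif-1* double mutant (log2 fold change 2.94 ± 0.23, adjusted p = 6.4e-06). Its partner *dpy-18* was at 70.8 and 75.6 CPM, against 12.5 and 17.4 CPM (log2 fold change 2.28 ± 0.23), and the lysyl hydroxylase gene *let-268* at 30.01 and 32.6 CPM, against 14.96 and 16.52 CPM (log2 fold change 0.99 ± 0.14). Most of the collagens that these enzymes could modify were not called. A mean of 1 CPM in either double mutant was reached by 2 of 13 body-shape, 4 of 6 annular furrow and 87 of 155 *col-* genes. For genes below this level a missing call says little. Of 13 body-shape collagens only *sqt-3* passed the test, at 31.5 and 26.3 CPM against 4.84 and 3.03 CPM (log2 fold change 2.89 ± 0.24), none of 6 annular furrow collagens did, and of 155 collagens named *col-* 7 were higher and 13 lower (4.52% and 8.39%, close to the 3.95% and 8.25% of all features). With a double-mutant library left out, these *col-* counts ran from 4 to 17 higher and from 7 to 18 lower, 17 and 7 being those without replicate 2 of the *hif-1* double mutant, 18 lower that without replicate 1 and 8 lower that without replicate 2 of the *cyp-36A1* double mutant, and 4 higher that without replicate 1 of the *hif-1* double mutant. Among 14 small heat shock genes, *hsp-12.3* and *sip-1* were higher, at 11 and 10.9 CPM against 0.880 and 1.083 CPM and at 1405 and 1087 CPM against 679 and 564 CPM. No gene of 15 antioxidant enzymes passed the test.

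The ferritin gene *ftn-1*, which stores iron, was at 357 and 241 CPM in the *cyp-36A1* double mutant, against 145.6 and 103.4 CPM in the *hif-1* double mutant (log2 fold change 1.27 ± 0.27, adjusted p = 0.009). Without replicate 1 of the *cyp-36A1* double mutant the log2 fold change was 0.95 (adjusted p = 0.12), and without replicate 2 of the *hif-1* double mutant 1.04 (adjusted p = 0.15), and with the robust estimate of the spread its adjusted p was 0.16. Its level was 357 and 220 CPM in *egl-9(lf)* mutants and 15.4 and 8.24 CPM in the wild type. Thus *ftn-1* in the *hif-1* double mutant was above the wild type in both libraries, and the difference of differences for this gene was -3.29 ± 0.41 (adjusted p = 0.0014).

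By size, the 12 highest and 12 lowest genes among those with non-overlapping libraries and at least 5 CPM in the higher strain were singled out. Several of the highest had 3 counts or fewer in the *hif-1* double mutant, so that the ratio is given with its exact 95% interval, which covers counting error only. The gene T05B4.13 was at 41.6 and 39.0 CPM in the *cyp-36A1* double mutant, against 0.126 and 0 CPM in the *hif-1* double mutant, a ratio of 695 (192 to 5740). The gene *nspe-3*, of a family of small peptides, was at 20.97 and 18.1 CPM, against 0 and 0.0542 CPM, a ratio of 676 (121 to 26700). Y102A11A.5 was at 18.8 and 13.4 CPM, against 0.0629 and 0.108 CPM, a ratio of 187 (63.6 to 909), and the collagen gene *col-78* at 7.66 and 5.90 CPM, against 0.0629 and 0.0542 CPM, a ratio of 118 (32.3 to 980). The methyltransferase gene *rips-1* and the glutathione S-transferase gene *gst-19* were abundant in the *cyp-36A1* double mutant and in *egl-9(lf)* mutants. Both were low in the *hif-1* double mutant and in the wild type. The levels of *rips-1* were 718 and 680 CPM in the *cyp-36A1* double mutant, against 4.59 and 1.57 CPM in the *hif-1* double mutant (log2 fold change 7.86 ± 0.31, adjusted p = 1.5e-08). Those of *gst-19* were 260 and 254 CPM, against 1.19 and 0.271 CPM (log2 fold change 8.5 ± 0.31). In *egl-9(lf)* mutants *rips-1* was at 671 and 835 CPM, against 3.432 and 5.266 CPM in the wild type. There *gst-19* was at 196 and 270 CPM, against 0.7677 and 1.104 CPM. The lectin gene *clec-60* was at 26.8 and 30.3 CPM in the *cyp-36A1* double mutant, against 0.189 and 0.325 CPM in the *hif-1* double mutant (log2 fold change 6.73 ± 0.28). It was at 7.53 and 7.96 CPM in *egl-9(lf)* mutants, against 0.181 and 0.340 CPM in the wild type. The difference of differences for *clec-60*, 1.74 ± 0.79, did not pass the test (adjusted p = 0.87). *nspe-2*, *nspe-6*, *xxxp-1* and *nspg-7.2* made up the rest of the 12 with *sqrd-1*.

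Higher genes often lay next to each other. By the order of genes in the RefSeq annotation (WBcel235), 88 of the 423 protein-coding genes at least 2-fold higher had a neighbour that was also at least 2-fold higher, 20.8%, while 4.53% of all tested coding genes had such a neighbour. For lower genes the shares were 30.1% of 1249 genes, and 12.9% of all coding genes. The longest run of higher genes, chosen after the values were seen, was of 6 genes on chromosome II that held *nspe-1*, *nspe-2*, *nspe-3*, *nspe-4*, *nspe-6* and Y38E10A.9, with log2 fold changes of 5.07 to 9.06. Another on the same chromosome held W07A12.4, *col-78*, *oac-54* and *rhy-1*, with log2 fold changes of 1.49, 6.70, 5.72 and 5.18. A run on chromosome V held R08E5.1, *rips-1* and *cysl-3* (6.66, 7.86 and 2.75). The genes *rips-1* and *cysl-3* overlap in that annotation and *nspe* genes are alike in sequence, and the strand setting of the counting is not given in the sources used here, so reads of such neighbours may be shared.

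The 12 largest decreases included genes of lipid and amino acid metabolism. The acyl-CoA dehydrogenase gene *acdh-1*, of branched-chain and propionate breakdown, was at 3.75 and 1.12 CPM in the *cyp-36A1* double mutant, against 281 and 284 CPM in the *hif-1* double mutant (log2 fold change -6.80 ± 0.31, adjusted p = 5.4e-08). In the other strains it was at 3.80 and 1.95 CPM in *egl-9(lf)* mutants, against 275 and 240 CPM in the wild type. The delta-9 fatty acid desaturase gene *fat-7* was at 7.91 and 5.28 CPM in the *cyp-36A1* double mutant, against 244 and 349 CPM in the *hif-1* double mutant (log2 fold change -5.47 ± 0.22, adjusted p = 1.9e-08). Here the *hif-1* double mutant stood out, since the wild type was at 35.6 and 31.9 CPM. In the related gene *fat-5* the *hif-1* double mutant was also the highest strain, at 1.079 and 0.746 CPM against 8.24 and 27.7 CPM (log2 fold change -4.29 ± 0.67, adjusted p = 0.0014), while *egl-9(lf)* mutants were at 0.7233 and 3.606 CPM and the wild type at 2.439 and 1.784 CPM. With the robust estimate of the spread its adjusted p was 0.07. Of 16 desaturase and elongase genes 2 were higher and 5 lower, and 1 was higher when any double-mutant library but replicate 2 of the *hif-1* double mutant was left out. The 2 higher and 5 lower genes of this list were 12.5% and 31.2%, beside 3.95% and 8.25% of all features. The transporter genes *pgp-5* and *pgp-6* were at 0.617 and 1.55 CPM against 28.2 and 38.4 CPM, and at 0.514 and 0.932 CPM against 14.8 and 54.5 CPM. With the robust estimate the adjusted p of *pgp-6* was 0.098. The other genes among the 12 lowest were Y19D10B.4 (annotated as a pseudogene), ZK856.18, F09C8.1, C18H9.5, T13F3.6, *ugt-13* and the sperm-related *msd-3*. The call of *msd-3* was lost with the robust estimate (adjusted p = 0.15), with DESeq2 (0.11) and without replicate 2 of either double mutant (0.055 for *cyp-36A1* and 0.07 for *hif-1*).

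Several families of detoxification genes were examined. Lower calls outnumbered higher ones over all features too (8.25% and 3.95%). Of 67 UDP-glucuronosyltransferases, enzymes that attach sugars to small molecules, 23 were lower and 4 higher, 34.3% and 5.97%, with a median log2 fold change of -0.82, beside 0.00 over all features. The gene *ugt-13* was at 0.976 and 1.24 CPM in the *cyp-36A1* double mutant, against 17.5 and 19.8 CPM in the *hif-1* double mutant (log2 fold change -4.08 ± 0.25, adjusted p = 6.7e-07). Among the higher ones, *ugt-65* was at 58.3 and 81.7 CPM, against 3.02 and 3.14 CPM (log2 fold change 4.50 ± 0.25). Of 78 tested cytochrome P450 genes 16 were lower and 2 higher (20.5% and 2.56%), with a median of -0.52. The gene *cyp-35A5* was at 0.771 and 0.932 CPM in the *cyp-36A1* double mutant, against 4.59 and 5.14 CPM in the *hif-1* double mutant (log2 fold change -2.52 ± 0.30), and *cyp-42A1* at 8.48 and 10.4 CPM, against 2.83 and 2.11 CPM (log2 fold change 1.93 ± 0.23). Of 47 glutathione S-transferases 8 were lower and 6 higher, with a median of 0.00. The oxidative stress reporter gene *gst-4* was lower, at 11.3 and 11.6 CPM against 27.4 and 41.0 CPM (log2 fold change -1.58 ± 0.20, adjusted p = 0.00039). The count of lower glucuronosyltransferases was 13 without replicate 1 of the *cyp-36A1* double mutant or replicate 2 of the *hif-1* double mutant. That of cytochrome P450 genes was 7 without replicate 2 of the *cyp-36A1* double mutant and 8 without replicate 2 of the *hif-1* double mutant, and when either of these was left out the order for glutathione S-transferases turned round, with 4 lower and 6 higher without the first and 4 lower and 5 higher without the second. Of 261 nuclear hormone receptors 6 were higher and 12 lower (2.3% and 4.6%, below the shares of all features), with counts of 2 to 10 higher and 3 to 18 lower when any of the 4 double-mutant libraries was left out.

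**Figure D2:**
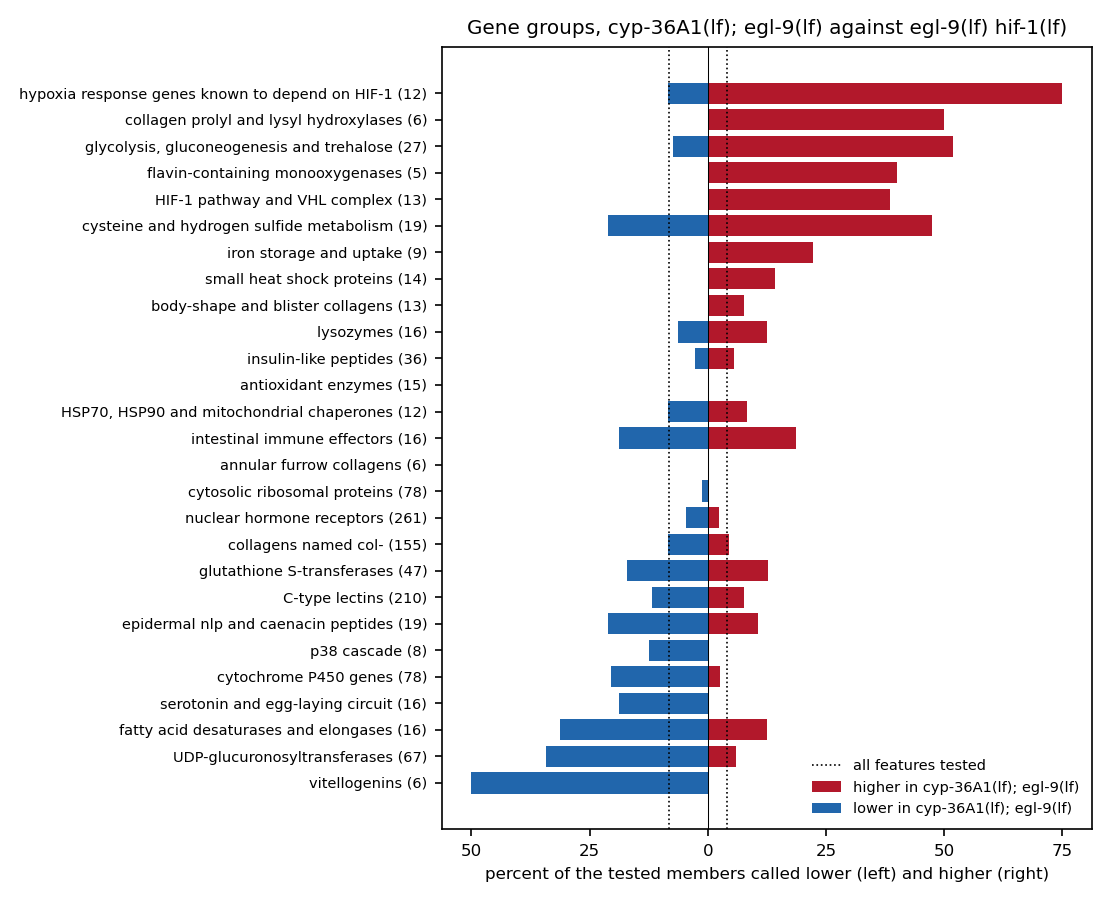
Percent of the tested members of each gene group (number in brackets) called higher (red, right) or lower (blue, left) in the *cyp-36A1* double mutant than in the *hif-1* double mutant, with dotted lines at the shares of all features tested (3.95% higher, 8.25% lower). Of the HIF-1 targets 9 of 12 are higher, and 3 of 6 vitellogenins and 23 of 67 UDP-glucuronosyltransferases are lower.

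Markers of sperm moved with the comparison. Of 100 tested sperm genes, among them those of the major sperm proteins, 76 were lower and none higher in the *cyp-36A1* double mutant. Among all features 8.25% were lower and 3.95% higher. The sperm genes had a median log2 fold change of -1.13. Their summed level was 3448 and 2993 CPM in the *cyp-36A1* double mutant, against 5473 and 7612 CPM in the *hif-1* double mutant, 2562 and 2745 CPM in *egl-9(lf)* mutants and 5885 and 6026 CPM in the wild type. Replicate 2 of the *hif-1* double mutant was the highest of all 8 libraries, and 60 sperm genes were lower without it. In the 4 double-mutant libraries 2 of the 100 genes were at 0. Many sperm genes are near-identical copies, so single values are uncertain. Oocyte and eggshell genes, 21 in all, summed to 16309 and 16908 CPM, against 14892 and 12646 CPM, with 6 higher and none lower. Of these genes 15 were higher without replicate 1 of the *hif-1* double mutant, and 1 was higher when any other double-mutant library was left out. The part of the sperm genes in the lower count as a whole was not tested. Of the other tissue markers, 0 of 12 neuronal and 0 of 9 hypodermal genes were called, and 1 of 10 muscle and 1 of 14 germline genes were higher and none lower. Of 9 intestinal genes 1 was higher and 2 lower (11.1% and 22.2%, beside 3.95% and 8.25% of all features), and their summed levels overlapped, at 4110 and 3652 CPM in the *cyp-36A1* double mutant and 3630 and 4438 CPM in the *hif-1* double mutant. Larval moulting genes, 13 in all, summed to 59.87 and 65.39 CPM, against 42.32 and 46.74 CPM, without overlap, with 1 higher and 1 lower. The part of intestinal and moulting genes in the results was not tested.

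Of the 6 vitellogenins, the yolk protein genes, 3 were lower and none higher, beside 8.25% lower among all features. The genes *vit-1*, *vit-3* and *vit-4* were at 6599 and 6765, 7531 and 7755, and 8094 and 8431 CPM in the *cyp-36A1* double mutant, against 9772 and 10353, 11769 and 11455, and 11254 and 11579 CPM in the *hif-1* double mutant. Their log2 fold changes were -0.59, -0.60 and -0.47 (SE 0.07 each). The genes *vit-2*, *vit-5* and *vit-6* did not pass the test, with log2 fold changes of -0.09, -0.19 and 0.04. For *vit-1*, *vit-3* and *vit-4* the log2 fold changes of *egl-9(lf)* mutants against the wild type were -1.58, -1.44 and -1.28. The genes are alike in sequence, so reads may have been divided between them. The summed vitellogenin level was 77375 and 81981 CPM in the *cyp-36A1* double mutant and 91190 and 94249 CPM in the *hif-1* double mutant. Cytosolic ribosomal protein genes, by contrast, summed to 99628 and 74243 CPM in the *cyp-36A1* double mutant, against 93641 and 100811 CPM in the *hif-1* double mutant. The strains overlapped, 1 of 78 genes was lower, and 74 were lower with replicate 1 of the *cyp-36A1* double mutant left out.

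**Figure D3:**
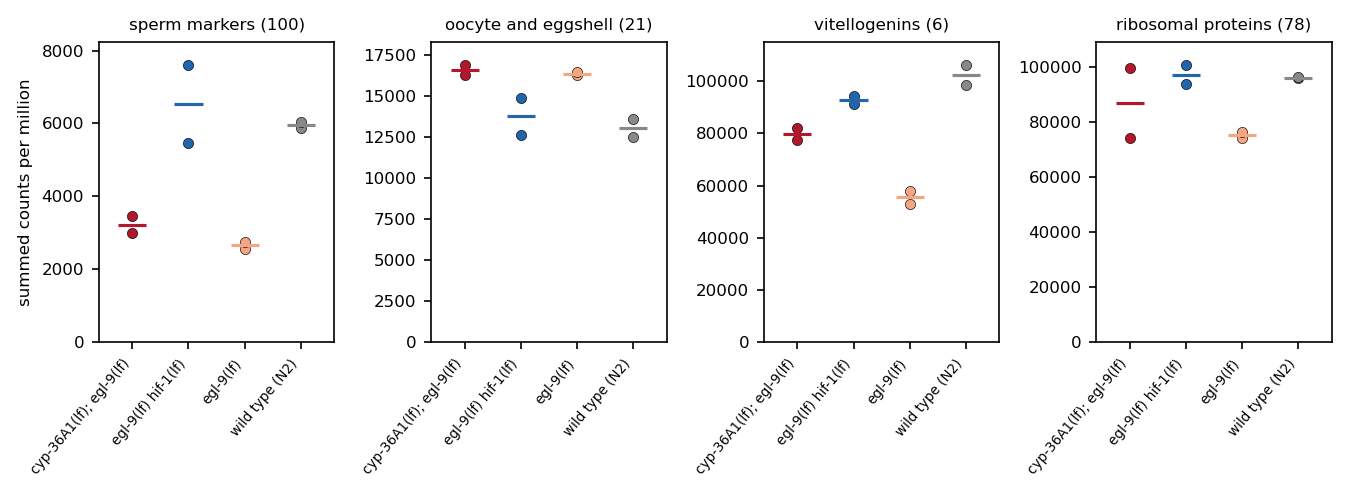
Summed CPM of 4 gene lists in each library, with bars for strain means and axes that start at 0. Sperm genes sum to 3448 and 2993 CPM in the *cyp-36A1* double mutant, against 5473 and 7612 CPM in the *hif-1* double mutant, while the ribosomal sums of the strains overlap.

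The second comparison asked how far the genes that *egl-9(lf)* changes in otherwise wild-type animals were changed between the double mutants. At least 2-fold, 542 genes (2.54% of those tested) were higher and 1340 (6.27%) lower in *egl-9(lf)* mutants than in the wild type. Of the 542 higher genes, 283 (52.2%) were higher in the *cyp-36A1* double mutant than in the *hif-1* double mutant, 19 were lower and 240 were not called, beside 3.95% higher among all features. Of the 1340 lower genes, 1034 (77.2%) were lower, 12 were higher and 294 were not called, beside 8.25% lower among all features. Without replicate 2 of the *hif-1* double mutant the share of lower genes called lower was 43.8%. The sign was the same for 84.9% of the higher and 95.1% of the lower genes. Sperm genes had a negative median log2 fold change in both comparisons. It was -1.13 between the double mutants and -1.23 between *egl-9(lf)* mutants and the wild type. The part of the sperm genes in the shared lower genes was not tested.

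The sizes of the changes were compared next. For genes higher in *egl-9(lf)* mutants the median log2 fold change was 1.38 between the double mutants and 2.33 between *egl-9(lf)* mutants and the wild type, and the median of each gene's ratio of log2 fold changes was 0.671. For lower genes the medians were -1.23 and -1.43, and the median ratio was 0.864. Each ratio divides by the change in *egl-9(lf)* mutants, by which the genes and the size classes were also chosen. Such a choice can lower the ratios even where the true changes are equal, and its part was not tested. The order of these ratios depended on size. At 2- to 4-fold the median ratio was 0.595 for the 222 higher and 0.892 for the 1125 lower genes, at 4- to 16-fold 0.729 for 202 and 0.671 for 167, and over 16-fold 0.69 for 118 and 0.304 for 48. Across genes, which are not independent replicates, Pearson's r of the log2 fold changes was 0.554 for the higher and 0.223 for the lower genes. The ratio was at least 0.75 for 243 of the 542 higher genes and under 0.25 for 125. For lower genes these numbers were 861 and 130 of 1340. Of the genes that *egl-9(lf)* lowered, 80.6%, 62.9% and 45.8% in these 3 size classes were also lower between the double mutants, with a median log2 fold change of -2.0 beside -5.33 in the last. Of the genes it raised, 48.6%, 54% and 55.9% were higher.

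Conversely, 33.5% of the 845 genes higher between the double mutants were at least 2-fold higher in *egl-9(lf)* mutants, beside 2.54% of all features. Of the 1764 lower genes 58.6% were at least 2-fold lower, beside 6.27% of all features. The 845 and 1764 genes had no fold threshold, so these shares cannot be set against those of the second comparison. The sign of the log2 fold change was the same for 92.9% of the higher and 94.6% of the lower genes. This share was not counted over all features. On the X chromosome lay 21.5% of the higher and 7.81% of the lower genes, with 14.3% of all those tested and placed. On chromosome IV lay 14.7% of the higher and 23.9% of the lower genes, where 3426 of the 20889 tested and placed genes lie.

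**Figure D4:**
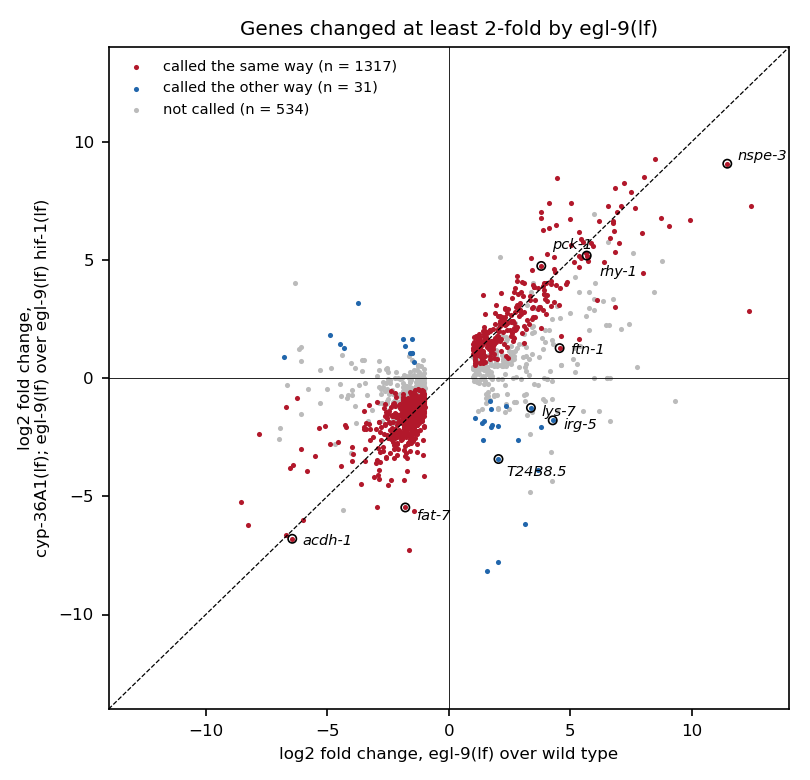
Log2 fold change of the *cyp-36A1* double mutant over the *hif-1* double mutant (vertical) against that of *egl-9(lf)* mutants over the wild type (horizontal) for the genes that *egl-9(lf)* changed at least 2-fold. The dashed line marks equal changes. The same direction was called for 1317 genes (red), the opposite for 31 (blue), among them *T24B8.5*, *irg-5* and *lys-7*, and neither for 534 (grey).

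Where the 2 comparisons differed was tested directly, as the log2 fold change between the double mutants minus that between *egl-9(lf)* mutants and the wild type. The *hif-1* double mutant and the wild type differ in *egl-9* as well as in *hif-1*. A call can therefore come from these strains and does not isolate an effect of *cyp-36A1*. This difference of differences was higher for 87 features (0.407% of those tested) and lower for 93 (0.435%). With the replicate number as a block these counts were 135 and 145. The numbers also rested on single libraries. The higher count was 37 without replicate 1 and 54 without replicate 2 of the wild type, and 54 without replicate 2 of *egl-9(lf)*. The lower count was 41 and 60 without those wild-type libraries, and 56 and 49 without replicates 1 and 2 of the *cyp-36A1* double mutant. Among the 180 features, 54 were called at least 2-fold in *egl-9(lf)* mutants and not between the double mutants, 53 were called between the double mutants and not at least 2-fold in *egl-9(lf)* mutants, and 31 were called in both with opposite signs. Chromosome V held 46.9% of those placed, beside 24.1% of all tested.

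Several immune effector genes had opposite changes in the 2 comparisons. The gene T24B8.5, an intestinal peptide gene that responds to the p38 immune cascade, was at 1.75 and 2.18 CPM in the *cyp-36A1* double mutant, against 13.5 and 28.2 CPM in the *hif-1* double mutant (log2 fold change -3.42 ± 0.36, adjusted p = 8.5e-05). In *egl-9(lf)* mutants it was at 76.5 and 96.0 CPM, against 20.5 and 21.5 CPM in the wild type, and the difference of differences was -5.47 ± 0.44 (adjusted p = 6.5e-05). The infection response gene *irg-5* was at 7.30 and 6.53 CPM in the *cyp-36A1* double mutant, against 23.3 and 24.6 CPM in the *hif-1* double mutant. In *egl-9(lf)* mutants it was at 586 and 547 CPM, against 30.4 and 28.03 CPM in the wild type, with a difference of differences of -6.06 ± 0.18 (adjusted p = 7.1e-09). Lysozyme gene *lys-7* was at 34.02 and 28.6 CPM in the *cyp-36A1* double mutant, against 56.2 and 93.9 CPM in the *hif-1* double mutant, and at 215 and 274 CPM in *egl-9(lf)* mutants, against 22.1 and 25.2 CPM in the wild type. In these 3 genes the *cyp-36A1* double mutant lay below the *hif-1* double mutant and *egl-9(lf)* mutants lay above the wild type. The transcription factor gene *zip-2*, which acts in pathogen responses, was at 81.8 and 75.02 CPM in the *cyp-36A1* double mutant, against 197 and 211 CPM in the *hif-1* double mutant (difference of differences -1.99 ± 0.24).

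The effectors did not all behave like this. Of 16 intestinal immune effector genes 3 were higher and 3 lower between the double mutants, beside 3.95% higher and 8.25% lower among all features. Without replicate 2 of the *hif-1* double mutant 6 were higher, and without its replicate 1 there were 5 lower. The gene *dod-24* was at 281 and 280 CPM in the *cyp-36A1* double mutant, against 50.9 and 70.1 CPM in the *hif-1* double mutant (log2 fold change 2.21 ± 0.14, adjusted p = 8.4e-07), and C17H12.8 at 141 and 138 CPM, against 17.4 and 39.1 CPM (log2 fold change 2.30 ± 0.26). The gene *irg-4* was at 108.6 and 102.7 CPM, against 78.6 and 124 CPM, ranges that overlapped, while *egl-9(lf)* mutants were at 417 and 471 CPM and the wild type at 62.1 and 70.7 CPM. Likewise *lys-2* was at 72.4 and 70.8 CPM in the *cyp-36A1* double mutant and 49.6 and 83.3 CPM in the *hif-1* double mutant, and at 161 and 159 CPM in *egl-9(lf)* mutants and 49.5 and 44.1 CPM in the wild type. Of the 8 genes listed for the p38 cascade only *zip-2* was called, and whether it acts in that cascade was not tested. The other listed genes did not pass the test, with log2 fold changes of -0.31 for *nsy-1* to 0.35 for *skn-1*. Of 210 C-type lectins 16 were higher and 25 lower, with counts of 10 to 14 higher and 16 to 35 lower when any of the 4 double-mutant libraries was left out. The 16 higher and 25 lower lectins were 7.62% and 11.9%, beside 3.95% and 8.25% of all features. A mean of 1 CPM in either double mutant was reached by 85 of the 210. The lectin gene *clec-209* was at 44.9 and 39.5 CPM in the *cyp-36A1* double mutant, against 373 and 437 CPM in the *hif-1* double mutant (log2 fold change -3.26 ± 0.12).

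**Figure D5:**
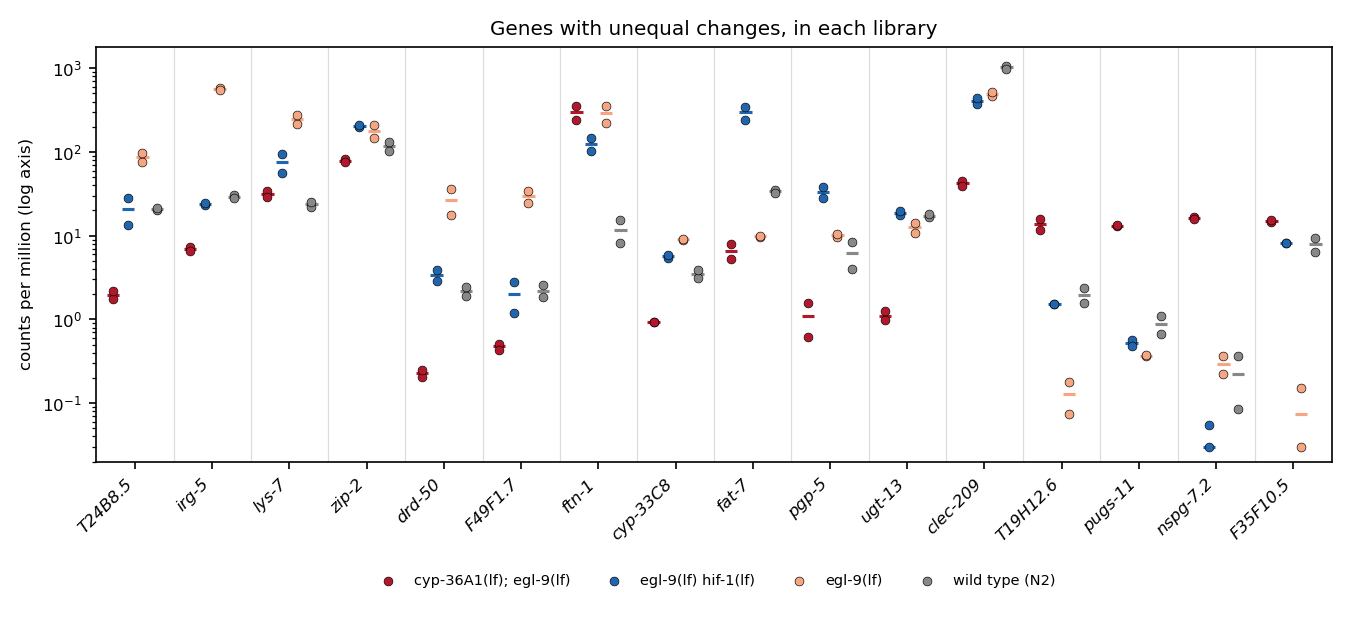
CPM (log axis) in each library for 16 genes with unequal changes in the 2 comparisons, with points for libraries and bars for strain means (a value of 0 is drawn at 0.03). T24B8.5 is at 1.75 and 2.18 CPM in the *cyp-36A1* double mutant, below the other 3 strains, and *fat-7* is at 244 and 349 CPM in the *hif-1* double mutant, above the other 3.

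Among features called in the difference of differences and with at least 5 CPM in a strain, the lowest were D2063.1, *scl-24*, *drd-50*, *irg-5*, F49F1.7 and *pgp-5*. D2063.1 was at 0 in both libraries of the *cyp-36A1* double mutant, against 1.38 and 1.90 CPM in the *hif-1* double mutant, which is at least 19.7-fold lower with 3 counts over the group as the limit. In *egl-9(lf)* mutants it was at 6.39 and 5.18 CPM, against 1.63 and 1.104 CPM in the wild type. The secreted-protein gene *scl-24* was also at 0 in both libraries, against 1.89 and 2.33 CPM, at least 25.2-fold lower. The gene *drd-50* was at 0.206 and 0.249 CPM, against 2.89 and 3.90 CPM (log2 fold change -3.88, adjusted p = 0.003), with 17.9 and 35.7 CPM in *egl-9(lf)* mutants and 1.90 and 2.46 CPM in the wild type. Without replicate 1 of the *cyp-36A1* double mutant its adjusted p was 0.057, and without replicate 2 it was 0.05.

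The highest among the called features were *nspg-7.2*, F35F10.5, T19H12.6, T28A11.19, *srbc-15* and *pugs-11*, and these arose in different ways. The gene *pugs-11* was at 13.1 and 13.4 CPM in the *cyp-36A1* double mutant, against 0.566 and 0.487 CPM in the *hif-1* double mutant, and at 0.362 and 0.376 CPM in *egl-9(lf)* mutants, against 0.677 and 1.104 CPM in the wild type. It was thus high in a single strain. T19H12.6 was at 15.6 and 11.7 CPM in the *cyp-36A1* double mutant, against 1.51 and 1.52 CPM in the *hif-1* double mutant (log2 fold change 3.17 ± 0.26), while *egl-9(lf)* mutants were at 0.181 and 0.0751 CPM, below the 1.58 and 2.38 CPM of the wild type. F35F10.5 was lacking mainly in *egl-9(lf)* mutants, at 0 and 0.150 CPM, against 9.48 and 6.37 CPM in the wild type, and was at 14.5 and 15.3 CPM in the *cyp-36A1* double mutant, against 8.17 and 8.07 CPM in the *hif-1* double mutant. The receptor-like *srbc-15*, annotated as a pseudogene, was below 0.5 CPM in all mutant libraries and at 9.21 and 13.4 CPM in the wild type. The call for *srbc-15* was lost when any library but replicate 1 of *egl-9(lf)* was left out (adjusted p = 0.059 to 0.48), that for *nspg-7.2* without replicate 1 of the wild type (adjusted p = 1.0), and that for T28A11.19 without the same library (adjusted p = 0.18) or replicate 2 of *egl-9(lf)* (adjusted p = 0.085).

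For most HIF-1 targets this difference did not pass the test. For *rhy-1*, *cysl-2*, *mpst-3*, *phy-2* and *nhr-57* the difference of differences was -0.49 ± 0.24, 0.23 ± 0.22, 0.02 ± 0.19, 0.03 ± 0.32 and 0.45 ± 0.30 on the log2 scale. This does not show that the changes were equal. Besides *hif-1* itself and *ftn-1*, the exception among the pathway, sulfur and glucose genes named above was *pck-1*, with 0.94 ± 0.14 (adjusted p = 0.005). Its log2 fold change was 3.80 ± 0.11 between *egl-9(lf)* mutants, at 1246 and 1307 CPM, and the wild type, at 90.1 and 93.2 CPM, so that the *hif-1* double mutant was below the wild type in both libraries.

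A final description set the mean level of each double mutant against the means of the other 3 strains. With at least 5 CPM in the higher strain and at least 8-fold above the highest of the others, the *cyp-36A1* double mutant had 3 such genes (*cest-29*, *pugs-11* and *nspg-7.2*), and with at least 5 CPM in each of the other strains and at least 8-fold below the lowest of them it had 7 (C29F3.7, F54F7.2, *ugt-13*, *pgp-6*, T24B8.5, *clec-209* and Y19D10B.4). C29F3.7, for example, was at 3.55 and 2.92 CPM in the *cyp-36A1* double mutant, against 30.5 and 40.5 CPM in the *hif-1* double mutant, 44.8 and 53.0 CPM in *egl-9(lf)* mutants and 38.7 and 32.02 CPM in the wild type. The *hif-1* double mutant had 2 genes above by this measure, *fat-7* and *fat-5*, and none below. These genes were chosen by their values, so no test is given.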

How the data were processed

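RNA-seq data of 4 strains with 2 replicates each were analysed, grouped by the genotype and replicate number in the labels. Expected counts per feature, which the authors deposited without normalization, came from RSEM 1.2.15 and Bowtie 1.0.1 on the ce10 genome with Ensembl 65. The same table holds the authors' FPKM values. Expected counts were rounded, since 36.1% of those above 0 were not whole. RSEM divides reads among near-identical genes. Names and gene order came from RefSeq (WBcel235), which matched 20889 of 21372 tested features; as the builds differ, no coordinates are given.

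Counts were fitted with edgeR 4.0.16 (R 4.3.3): TMM scaling, glmQLFit with the revised estimate (legacy=FALSE) on all 8 libraries, glmQLFTest on contrasts, Benjamini-Hochberg adjustment over 21372 features and a threshold of 0.05. With the default estimate the prior degrees of freedom were infinite, against 7.80 here. Each standard error is the fold change over the root of its F statistic. Deviations of libraries with the same replicate number correlated in all 6 pairs of strains (0.127 to 0.355 across 12719 genes), so numbers were taken as pairing the libraries, and a block was run as an alternative. Other alternatives were DESeq2 1.42.0, limma 3.58.1 on log2(FPKM + pseudocount) for features that reached an FPKM of 1 in 2 or more libraries, other filters and scalings, a robust estimate of the spread (robust=TRUE), a threshold of 0.01, a fit to the double mutants alone and each library left out.

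The comparison, the 27 gene groups, 8 marker lists and the rule for named genes were chosen with earlier results of these data known. Named were 7 genes of the pathway, the 12 highest and 12 lowest genes of at least 5 CPM, called members of groups of up to 30 genes, the 3 highest and 3 lowest called members of larger groups, and the 6 highest and 6 lowest in the difference of differences. For genes at 0 in a strain, 3 counts over both of its libraries served as the limit.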

Additional observations from a re-analysis of the deposited data

Results flagged for a closer look

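The results below stood out because the log2 fold change between the double mutants differed from that between *egl-9(lf)* mutants and the wild type, by a test of that difference in edgeR's model (adjusted p under 0.05). The values are differences of differences on the log2 scale. Among immune genes they were -5.47 for T24B8.5, -6.06 for *irg-5*, -4.64 for *lys-7*, -1.19 for *lys-4*, -1.99 for *zip-2*, -3.82 for *clec-190* and -2.20 for *clec-209*. Among genes of iron, lipid and small-molecule metabolism they were -3.29 for *ftn-1*, -3.68 for *fat-7*, -5.78 for *pgp-5*, -5.76 for *pgp-6*, -3.99 for *cyp-33C8*, -3.63 for *ugt-13* and 0.94 for *pck-1*, and among yolk genes 0.99, 0.84 and 0.81 for *vit-1*, *vit-3* and *vit-4*. Nuclear receptors gave -3.80 for *nhr-112* and -2.22 for *nhr-58*, and *hif-1*, which carries a deletion in the *hif-1* double mutant, gave 1.91.

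Other genes with lower values were D2063.1 (-9.81), *scl-24* (-9.71), *drd-50* (-7.53), F49F1.7 (-5.88), Y19D10B.4 (-5.66), ZK856.18 (-4.21) and C18H9.5 (-3.15). Those with higher values were *nspg-7.2* (8.60), F35F10.5 (7.66), T19H12.6 (6.91), T28A11.19 (6.71), *srbc-15* (6.37), *pugs-11* (5.80) and T13F3.6 (1.88). For D2063.1 and *scl-24*, at 0 in both libraries of the *cyp-36A1* double mutant, the fitted value depends on the prior count of the fit and is no measure of size.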

How the results depend on the processing

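The counts between the double mutants stayed within 1.5 times of 845 higher and 1764 lower under every alternative that kept all libraries and the threshold. At an adjusted p of 0.01 they were 396 and 1058. With 1 library left out they ran from 426 to 989 higher and from 836 to 2167 lower. The share of genes higher in *egl-9(lf)* mutants that were also higher between the double mutants ran from 49.7% to 56.9% with all libraries and from 39.6% to 67.5% with 1 left out, and the share of lower genes from 70.7% to 80.1% and from 43.8% to 82.3%. The difference of differences moved most, from 87 higher and 93 lower to 246 and 286 with the default estimate of the spread, 138 higher with DESeq2, 135 and 145 with the replicate block, and 46 and 52 at an adjusted p of 0.01. It ran from 37 to 87 higher and from 41 to 112 lower with 1 library left out. The highest of these counts, 989, 2167 and 112, were those without replicate 1 of the *hif-1* double mutant. The cause was not tested, except that the stricter threshold calls fewer genes by construction. The block, which models the pairing of replicate numbers, gave 1035 higher and 2072 lower genes and lost the call of 1 named gene, *clec-61*.

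Of 137 named genes called between the double mutants, 86 kept direction and threshold under every alternative, and none of the 137 reversed. Up to 35 lost the call with 1 library left out (without replicate 2 of the *hif-1* double mutant), 18 in a fit to the double mutants alone, 12 with DESeq2, 10 with the robust estimate of the spread, and 31 at an adjusted p of 0.01. The filterByExpr filter with the default estimate was chosen after seeing the data. With 2 libraries a strain, small differences in genes of few counts were not detectable at this depth.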

Other observations

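A few signalling and other genes not described above also differed. The insulin-like peptide gene *ins-19* was at 2.83 and 1.55 CPM in the *cyp-36A1* double mutant and at 0 in both libraries of the *hif-1* double mutant, at least 25.8-fold higher with 3 counts over the group as the limit. It was at 3.50 and 7.81 CPM in *egl-9(lf)* mutants, against 0.0452 and 0 CPM in the wild type. Of 36 tested insulin-like peptide genes 2 were higher and 1 was lower (5.56% and 2.78%, beside 3.95% and 8.25% of all features). The neuropeptide-like gene *nlp-24* was at 19.7 and 17.5 CPM in the *cyp-36A1* double mutant, against 42.4 and 60.8 CPM in the *hif-1* double mutant (log2 fold change -1.47 ± 0.20, adjusted p = 0.00053 in edgeR). The gene *col-184*, 1 of the 13 lower collagens named *col-*, was at 208 and 167 CPM, against 1272 and 1606 CPM (log2 fold change -2.94 ± 0.14, adjusted p = 7.2e-08), and at 194 and 215 CPM in *egl-9(lf)* mutants, against 1469 and 1572 CPM in the wild type.

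The HSP70 genes F44E5.4 and F44E5.5, near-identical neighbours, were called in opposite directions, with F44E5.4 at 0 in both libraries of the *cyp-36A1* double mutant and F44E5.5 at 0 in both libraries of the *hif-1* double mutant. Their sum was 0.771 and 1.99 CPM in the *cyp-36A1* double mutant, against 1.76 and 6.23 CPM in the *hif-1* double mutant, ranges that overlapped. Neither call was stable. That of F44E5.4 (adjusted p = 0.016) was lost with the robust estimate (0.27), with limma on log2(FPKM + 1) (0.085), at a threshold of 0.01, and without either *cyp-36A1* double-mutant library or replicate 2 of the *hif-1* double mutant (0.11 to 0.21). That of F44E5.5 (adjusted p = 0.011) was lost with DESeq2 (0.4), at a threshold of 0.01, and without replicate 2 of the *cyp-36A1* (0.054) or of the *hif-1* double mutant (0.095). How RSEM divided reads between the copies was not tested.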
